A study of Mus musculus with 9 samples.

Results

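Xenobiotic and steroid metabolising enzymes were described across 9 RNA libraries of sorted mouse intestinal cells. The genes were taken by name from the deposited count table: protein-coding genes of the cytochrome P450 families Cyp1 to Cyp4, the UDP-glucuronosyltransferases (Ugt1 and Ugt2), the glutathione S-transferases (Gst) and the sulfotransferases (Sult). Of 146 genes with such a name, 93 had at least 10 counts in at least 3 of the 9 libraries and were described, among 78239 genes in the table. They were 1 Cyp1, 29 Cyp2, 5 Cyp3, 13 Cyp4, 13 Ugt, 24 Gst and 8 Sult genes.

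The mice carried the Lgr5-2A-eGFP reporter, in which GFP marks cells that express the stem cell receptor gene Lgr5, and were 8 weeks old. The 3 groups of 3 libraries were GFP-high cells of the colon, GFP-negative cells of the colon, and cells of the small intestine. All groups carried the reporter, no treatment was named, and the sorts took at least 30000 cells per fraction from colon and 50000 from small intestine. The labels give no GFP fraction for the small intestinal libraries, so region, fraction and sorted cell number cannot be told apart in any comparison of colon with small intestine. They do not say whether the libraries came from separate animals, and the p-values therefore measure the spread between these samples, which may be technical.

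Drug and steroid metabolism is usually described in steps. Cytochromes P450 (phase I) add oxygen to a substrate with electrons from cytochrome P450 reductase, and Ugt, Gst and Sult enzymes (phase II) attach glucuronic acid, glutathione or sulfate, which makes the product easier to excrete. The liver is the main site, but the epithelium of the gut is the first tissue that swallowed compounds cross. Nuclear receptors such as the constitutive androstane receptor (Nr1i3) and the pregnane X receptor (Nr1i2) switch on many of the genes.

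The libraries held 86621513 to 106673547 counts each, and levels are given as CPM, which are counts scaled to library size, here with TMM factors. Lgr5 itself went against 1 pair of labels. Among the GFP-high colon libraries it measured 43.5 CPM (replicate 1) and 72.98 CPM (replicate 3), and among the GFP-negative ones 2.84 CPM (replicate 1) and 6.28 CPM (replicate 3). The 2 libraries labelled replicate 2 ran the other way, with 0.958 CPM under the GFP-high label and 62.1 CPM under the GFP-negative label. The small intestinal replicates 1 to 3 had 57.9, 119.7 and 209 CPM. The main comparison set the mean of both colon groups (6 libraries) against small intestine (3 libraries), with an equal weight for each colon group. The fraction labels still entered through the filter by group and the spread within each labelled group. A fit of the 2 regions without these labels also called the 24 members that the main comparison called. Of 10 epithelial marker genes, 9 reached 10 counts in every library, and the other, Cldn3, had no count in any. The RNA of mature cell markers differed between libraries of 1 group. The 12 enterocyte markers summed to 40835, 846 and 9959 CPM in small intestinal replicates 1 to 3 and to 162 to 381 CPM in the colon libraries. The sum of 8 colonocyte markers ranged from 483 CPM (GFP-high replicate 1) to 26168 CPM (GFP-negative replicate 3) within the colon.

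Most of these enzyme genes were not told apart between colon and small intestine, and those that were ran in both directions. In edgeR's quasi-likelihood test with Benjamini-Hochberg adjustment over 20610 genes, 24 of the 92 members tested differed between the regions at an adjusted p under 0.05 (26.1% of the members, beside 8.79% of all genes tested), and 68 did not pass. Of these, 8 were higher in colon (5% of all genes were) and 16 were lower (3.79% of all genes were). The 8 higher were Sult1a1, Sult1c2, Gstm2 and 5 Cyp2 genes. The 16 lower were 4 Cyp2, 3 Cyp3 and 6 Cyp4 genes with Ugt2a3, Gsta2 and Sult6b2. The median log2 fold change of the members was -0.20, beside -0.000298 over all genes tested. The 24 include 8 that reached 10 counts in 1 region alone. Among the 79 tested members with 10 counts in a library of both regions, 16 were called (20.3%, beside 7.64% of all such genes), 6 higher (4.17% of such genes) and 10 lower (3.47%). DESeq2 called 43 members and limma-voom 14, and leaving out colon GFP-negative replicate 1 left 15. These counts show how the calls depend on the setting, and are not set beside the share of all genes called under it. No member was called with the tag of the library names as a replicate block, a fit with 5 tags that leaves 2 residual degrees of freedom; the labels do not say what the tag marks. In these bulk samples, fewer cells of a type and less RNA per cell cannot be told apart.

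**Figure D1:**
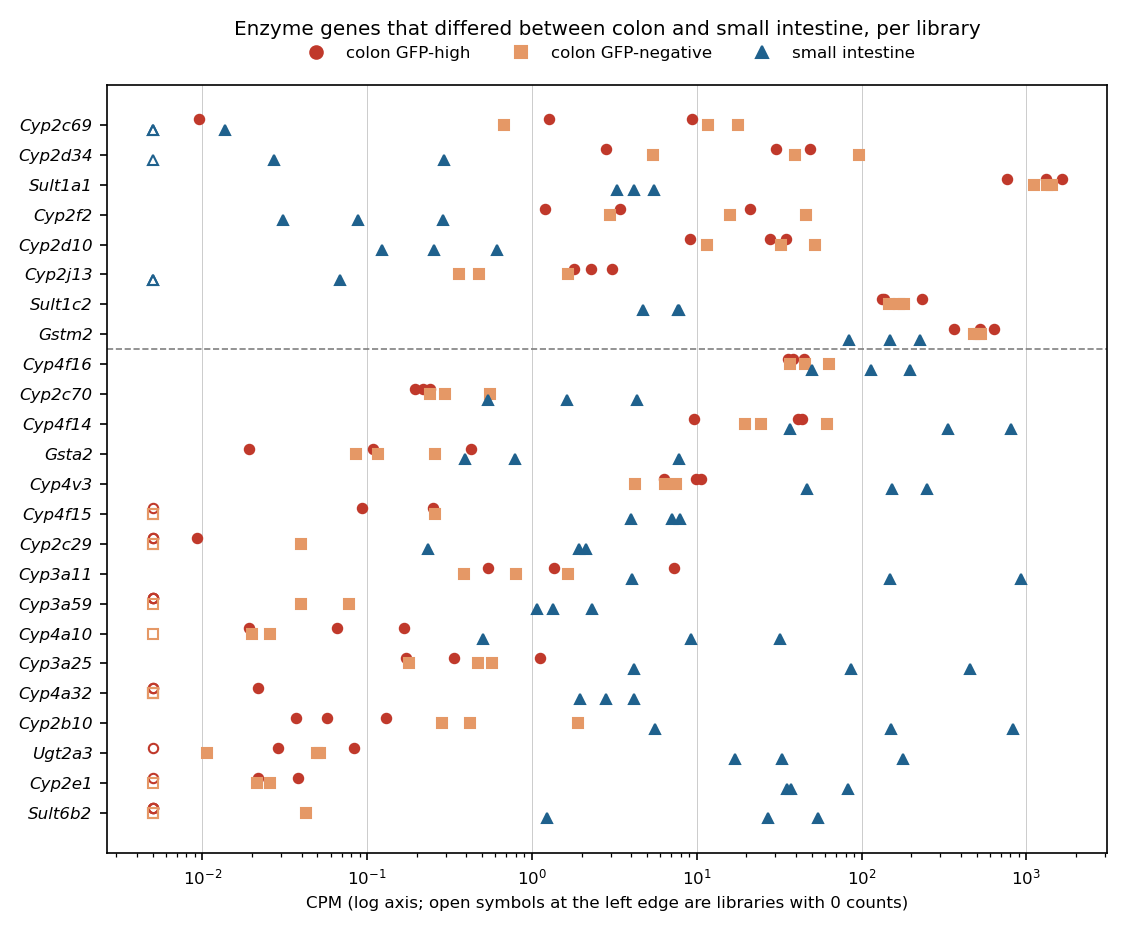
CPM of the 24 enzyme genes that differed between the regions, on a log axis, with 1 symbol per library (circles colon GFP-high, squares colon GFP-negative, triangles small intestine, open symbols libraries without a count), ordered by log2 fold change with genes higher in colon above the dashed line. In 18 of the 24 genes the colon and small intestinal symbols do not overlap.

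Sorted by whether the libraries overlapped, all 6 colon libraries lay above all 3 small intestinal libraries for 14 members (9.49% of all genes tested did so) and below them for 13 (8.39% of all genes), while 66 overlapped. The members near the limit for inclusion bear on this count. A total of 80 members reached 10 counts in a library of both regions, 7 only in colon and 6 only in small intestine. The 6 (Cyp2c29, Cyp2e1, Cyp3a59, Cyp4a32, Sult6b2 and Ugt2a3) passed only through the region where they were high and so had to differ between regions; all 6 were called. Of the 7 that passed through colon alone, Cyp2c69 and Cyp2j13 were called. The 11 members with 10 counts in exactly 3 libraries were these 6 with Cyp1a1, Cyp2d13, Cyp2j5, Gstt4 and Ugt2b37, and the genes just outside, with 10 counts in 2 libraries, were Cyp2ab1, Cyp2c38, Cyp4x1, Sult1c1 and Ugt1a8. Of the other 48 genes with a matching name, 24 had no count in any library, among them all 8 Sult2a genes, Cyp1a2 and Cyp1b1, 20 had at most 9 counts in any library and the rest 10 counts in 1 library.

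The sulfotransferases, which move sulfate from PAPS onto phenols and steroids, held the call with the lowest adjusted p. Sult1a1 (ENSMUSG00000030711.17, chromosome 7, 126672865 to 126676432, minus strand), a phenol sulfotransferase, stood at 767, 1635 and 1312 CPM across the GFP-high colon libraries and 1342, 1432 and 1110 CPM across the GFP-negative ones (replicates 1, 2 and 3 of each). In small intestinal replicates 1 to 3 it stood at 3.30, 5.54 and 4.14 CPM. All 6 colon libraries lay far above all 3 small intestinal ones, and the fitted log2 fold change was 8.19 ± 0.45 (SE; adjusted p = 3.78e-05). Sult1c2 (ENSMUSG00000023122.7, chromosome 17, 53829637 to 53846339, minus strand), another cytosolic sulfotransferase, had 133 to 232 CPM (median 158) in the 6 colon libraries and 7.69, 7.78 and 4.70 CPM in small intestine, again without overlap, at 4.63 ± 0.33 (adjusted p = 0.000145). Within the small intestine both were highest in replicate 2, the library with the lowest enterocyte marker sum. Sult6b2 (ENSMUSG00000048473.16, chromosome 6, 142785204 to 142804502, minus strand) ran the other way, with 54.4, 1.24 and 27.2 CPM in small intestine and 4 counts in all 6 colon libraries together, all of them in GFP-negative replicate 3. Its count ratio of small intestine to colon was 3590 (95% counting interval 1402 to 13180), and it was called lower in colon (adjusted p = 0.00484). The fitted log2 value of -12.58 moved to -14.41 without that colon library and to -11.65 without small intestinal replicate 1.

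Among the sulfotransferases that were not called, Sult1d1, which takes phenols and catecholamines, had 90.8 to 257 CPM (median 179) in colon and 231, 58.1 and 63.2 CPM in small intestine, and the regions overlapped. Sult1b1 (colon mean 127, small intestine 244 CPM), the cholesterol sulfotransferase gene Sult2b1 (29.6 and 93.96 CPM), Sult4a1 and Sult6b1 (all means under 1 CPM) also overlapped. Summed per length over the 8 members, the class reached 1054 ± 245 RPKM (SD, n = 6) in colon and 179 ± 178 RPKM (n = 3) in small intestine (RPKM, counts scaled to library size and gene length). Sult1a1 made 79.7% of the colon sum, whereas Sult1b1 made 49.1% of the small intestinal sum. The small intestinal libraries stood at 383, 51.7 and 102 RPKM, all below the lowest colon library at 633 RPKM.

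Genes were chosen for a look at their promoters by the 2 lowest adjusted p in each direction. RefSeq (GRCm38.p6) gave 250 bases before its own start for 79 of the 93 members. That start lies 14 bases (Sult1a1), 381 bases (Sult1c2) and 80 bases (Cyp2e1) downstream of the GENCODE M21 gene start given here, and at the same base for Ugt2a3, so the stretch shown for Sult1c2 falls wholly inside its GENCODE gene. The 4 sequences are shown so that the letters upstream of the sharpest regional contrasts can be compared, 5′ to 3′ on the gene's own strand, with matches to any of 5 searched motifs in capitals.
Sult1a1 promoter, chr7:126676419-126676668, minus strand: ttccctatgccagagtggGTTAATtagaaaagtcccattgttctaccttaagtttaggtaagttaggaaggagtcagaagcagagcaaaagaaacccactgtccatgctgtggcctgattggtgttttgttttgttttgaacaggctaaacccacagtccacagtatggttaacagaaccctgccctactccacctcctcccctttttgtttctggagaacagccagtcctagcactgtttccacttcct
Sult1c2 promoter, chr17:53845959-53846208, minus strand: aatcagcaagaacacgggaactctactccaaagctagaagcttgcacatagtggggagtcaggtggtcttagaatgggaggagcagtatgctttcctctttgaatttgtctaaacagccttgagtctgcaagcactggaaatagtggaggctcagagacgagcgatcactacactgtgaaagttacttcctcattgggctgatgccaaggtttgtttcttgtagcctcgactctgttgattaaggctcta
Cyp2e1 promoter, chr7:140763569-140763818, plus strand: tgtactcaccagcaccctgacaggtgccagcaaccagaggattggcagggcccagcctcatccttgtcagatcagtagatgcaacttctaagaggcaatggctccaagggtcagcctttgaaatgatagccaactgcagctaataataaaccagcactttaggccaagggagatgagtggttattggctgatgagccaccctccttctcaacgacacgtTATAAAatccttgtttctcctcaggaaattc
Ugt2a3 promoter, chr5:87337196-87337445, minus strand: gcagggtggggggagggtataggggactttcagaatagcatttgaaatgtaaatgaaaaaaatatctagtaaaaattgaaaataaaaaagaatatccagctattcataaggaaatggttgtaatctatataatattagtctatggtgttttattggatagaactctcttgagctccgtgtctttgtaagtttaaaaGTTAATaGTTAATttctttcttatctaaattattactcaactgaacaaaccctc

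The capitals mark GTTAAT, a part of the HNF1 element, 232 bases before the start of Sult1a1 and 54 and 47 bases before that of Ugt2a3, and TATAAA, the TATA box, 31 bases before that of Cyp2e1. Sult1c2 had no match. Both strands were searched over all 79 promoters and over 27025 RefSeq promoters of the same length. GTTAAT was found in 14 member promoters (17.7%, beside 7.49% of all), CAAAGT, a part of the HNF4A element, in 22 (27.9% beside 14.1%), and TATAAA in 20 (25.3% beside 14.3%). The core of the aryl hydrocarbon receptor element, GCGTG, was in 18 (22.8% beside 30.9%), and that of the antioxidant response element, TGACNNNGC, in 5 (6.33% beside 11.5%). Of the called members with a promoter, TATAAA was in 7 of 15 lower in colon and in 1 of 7 higher, CAAAGT in 5 of 15 and 1 of 7, and GCGTG in 5 of 15 and 1 of 7. GTTAAT was in 3 of 15 and 2 of 7, and TGACNNNGC in 1 of 15 and 0 of 7. A match describes these letters only.

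The products of the Cyp2 genes oxidise drugs, solvents and arachidonic acid. Of 28 tested, 5 were higher in colon (5% of all genes were), 4 were lower (3.79% of all genes) and 19 did not pass the test. Among those called, Cyp2c29 and Cyp2e1 reached 10 counts only in small intestine, and Cyp2c69 and Cyp2j13 only in colon. Their inclusion thus rests on the region where they were high, which limits the comparison with the share of all genes. Cyp2e1 (ENSMUSG00000025479.10, chromosome 7, 140763739 to 140774987, plus strand), which oxidises ethanol and small solvents, had 35.3, 37.3 and 82.8 CPM in small intestinal replicates 1 to 3 and at most 0.0382 CPM in any colon library. The regions did not overlap, and the log2 fold change was -11.44 ± 0.75 (adjusted p = 8.78e-05). Cyp2b10 (ENSMUSG00000030483.15, chromosome 7, 25897620 to 25926624, plus strand), the classical target of Nr1i3, had 826, 5.57 and 150.1 CPM in small intestine and 0.0372 to 1.90 CPM (median 0.208) in colon. All small intestinal libraries were higher, but they differed among themselves by 148-fold, and the fold change of -10.32 ± 1.40 (adjusted p = 0.00316) became -8.25 without small intestinal replicate 1 and -10.97 without colon GFP-negative replicate 3. Cyp2c29, an arachidonic acid epoxygenase, had 1.92, 0.234 and 2.12 CPM in small intestine and 5 counts in all of colon, a count ratio of 165 (95% counting interval 70.3 to 512) (adjusted p = 0.00797; without colon GFP-negative replicate 2, which held 4 of the 5, the fitted log2 value moved from -7.43 to -9.21, and without GFP-high replicate 3, which held the other, to -8.32). Cyp2c70, which makes muricholic acid from bile acids in mice, was low, with 4.33, 1.63 and 0.542 CPM in small intestine and 0.196 to 0.558 CPM (median 0.241) in colon; the regions overlapped and the call (-2.93 ± 0.63, adjusted p = 0.0223) held in 2 of the 9 fits that each left out 1 library, those without colon GFP-negative replicate 3 and without small intestinal replicate 3 (adjusted p 0.0524 to 0.138 in the others, -1.93 without small intestinal replicate 1).

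Of the Cyp2 genes higher in colon, Cyp2d10 (ENSMUSG00000094806.3, chromosome 15, 82402846 to 82407195, minus strand) had 9.14 to 52.2 CPM (median 30.2) in colon and 0.617, 0.254 and 0.124 CPM in small intestine. Its libraries did not overlap, and the log2 fold change was 6.40 ± 0.89 (adjusted p = 0.00346; 7.20 without small intestinal replicate 1). Cyp2d34, a neighbour in the same cluster, had 2.81 to 96.7 CPM (median 34.7) in colon and 0.0274, 0 and 0.294 CPM in small intestine, at 8.28 ± 1.78 (adjusted p = 0.0223). This call was lost without colon GFP-negative replicate 1 (0.0513), small intestinal replicate 1 (0.0897) or small intestinal replicate 2 (0.0594), and the value rose to 11.40 without small intestinal replicate 3. Cyp2f2, known for activating naphthalene in the airway, had 1.20 to 45.95 CPM (median 9.72) in colon and 0.288, 0.0879 and 0.0310 CPM in small intestine, again without overlap. Its log2 fold change was 6.69 ± 1.52 (adjusted p = 0.0277), with the call lost without colon GFP-negative replicate 1 or any 1 small intestinal library (adjusted p 0.0578 to 0.113) and values of 5.75 without colon GFP-high replicate 2, 6.10 without GFP-negative replicate 3 and 7.84 without small intestinal replicate 1.

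Cyp2j13 and Cyp2c69 were the least certain of the 8 higher in colon. Cyp2j13 had 0.359 to 3.05 CPM (median 1.72) in colon and 0.0686, 0 and 0 CPM in small intestine. Every colon library was higher, but the call (6.02 ± 1.45, adjusted p = 0.035) held in 3 of the 9 fits that left out 1 library, those without colon GFP-negative replicate 2, GFP-negative replicate 3 and small intestinal replicate 1 (10.15, the only small intestinal library with a count), with adjusted p 0.0578 to 0.0997 in the others. Cyp2c69 had 0.00954, 9.37 and 1.27 CPM across the GFP-high colon libraries and 11.7, 0.678 and 17.7 CPM across the GFP-negative ones (replicates 1, 2 and 3 of each), and 1 count in all of small intestine. The count ratio of colon to small intestine was 1914 (95% counting interval 343 to 75621), with the lowest colon library below the small intestinal one that held the count. The call (adjusted p = 0.0398) held only without colon GFP-high replicate 1 and without GFP-negative replicate 2 (adjusted p 0.0541 to 0.166 without each of the others), and the fitted log2 value ran from 9.05 without colon GFP-high replicate 2 to 12.23 without small intestinal replicate 1. Of its transcript sequence, 54.3% of 50-base windows were shared with other genes, mainly Cyp2c40, so its reads could be split with theirs.

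The most abundant Cyp2 gene of the colon did not pass the test. Cyp2c55, which oxidises arachidonic and linoleic acid, stood at 18.2, 1727 and 1134 CPM across the GFP-high colon libraries and 1085, 259.5 and 1687 CPM across the GFP-negative ones (replicates 1, 2 and 3 of each), beside 33.9, 1.47 and 27.3 CPM in small intestine. Its colon libraries thus spread by 94.9-fold, with GFP-high replicate 1 inside the small intestinal range, and the log2 fold change was 5.56 ± 1.61 (adjusted p = 0.0692). The 8 colonocyte markers, of which 1 was called higher in colon, summed in the same 6 libraries to 483, 22109, 8478, 10691, 3253 and 26168 CPM. GFP-high replicate 1 was lowest and GFP-negative replicate 2 next lowest in both, and the part of these cells in the spread of Cyp2c55 was not tested. Per length, Cyp2c55 made 72.3% of the Cyp2 sum in colon (494 RPKM) and Cyp2b10 made 38.8% of that in small intestine (155 RPKM). Cyp2c65 had 7.44 to 222 CPM (median 112) in colon and 185, 16.6 and 86.03 CPM in small intestine, with overlapping regions.

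The other 18 Cyp2 members were Cyp2c23, Cyp2c40, Cyp2c66, Cyp2c67, Cyp2c68, Cyp2d9, Cyp2d11, Cyp2d12, Cyp2d13, Cyp2d22, Cyp2d26, Cyp2j5, Cyp2j6, Cyp2j9, Cyp2r1, Cyp2s1, Cyp2u1 and Cyp2w1. Their means ran from 0.0281 CPM (Cyp2j5, too low to be tested) to 75.6 CPM (Cyp2j6) in colon, and from 0.0123 CPM (Cyp2d12) to 147 CPM (Cyp2d26) in small intestine. Only Cyp2d11 and Cyp2r1, the latter a vitamin D 25-hydroxylase gene, separated the regions without overlap, with colon higher (means of 5.01 and 1.92 CPM for Cyp2r1). Cyp2d12 had up to 18.9 CPM in colon and at most 0.0232 CPM in small intestine, but 0 in the lowest colon library. The lowest adjusted p among these members was 0.0555 (Cyp2c66, log2 fold change -4.82 ± 1.31), just outside the threshold, and the highest among the called members was 0.0482 (Gsta2).

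Cyp3 enzymes hydroxylate steroids, bile acids and a large share of drugs. Of the 5 tested, 3 were lower in colon (3.79% of all genes were) and none higher (5% of all genes). Among the 3, Cyp3a59 reached 10 counts only in small intestine and so had to differ. Cyp3a11 (ENSMUSG00000056035.9, chromosome 5, 145854426 to 145879964, minus strand), the main drug-metabolising Cyp3a gene of mouse liver and gut, stood at 929.8, 4.07 and 149 CPM in small intestinal replicates 1 to 3 and at 0.386 to 7.29 CPM (median 1.08) in colon. Colon GFP-high replicate 3, at 7.29 CPM, was above small intestinal replicate 2, so the regions overlapped, and the log2 fold change of -7.74 ± 1.41 (adjusted p = 0.0109) became -5.49 without small intestinal replicate 1 and -8.56 without that colon library. Cyp3a25 had 456, 4.18 and 86.7 CPM in small intestine and 0.172 to 1.12 CPM (median 0.405) in colon. All small intestinal libraries were higher (-8.60 ± 1.25, adjusted p = 0.00417; -6.60 without small intestinal replicate 1). Cyp3a59 was low everywhere, with 2.30, 1.35 and 1.08 CPM in small intestine and 10 counts in colon, all in 2 GFP-negative libraries. Its count ratio of small intestine to colon was 84.02 (95% counting interval 45.3 to 176) (adjusted p = 0.00766), and 30.02% of its windows were shared with other genes.

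Cyp3a13, which lies apart from the Cyp3a cluster on chromosome 5, did not pass the test, with 276, 5.55 and 117 CPM in small intestine and 0.897 to 27.8 CPM (median 16.3) in colon (-3.22 ± 1.11, adjusted p = 0.113). It nevertheless made 80.3% of the Cyp3 sum per length in colon, where the whole class reached 6.01 RPKM, while Cyp3a25 led in small intestine with 42.8%. The Cyp3 sum was 497, 5.35 and 111 RPKM in small intestinal replicates 1 to 3, so replicate 2 lay inside the colon range of 0.990 to 10.9 RPKM. Cyp3a44 had means of 1.09 CPM in colon and 0.497 CPM in small intestine and was not called. The only Cyp1 member, Cyp1a1, the standard target of the aryl hydrocarbon receptor, had 3.54, 0 and 2.43 CPM in small intestine and 18 counts in colon, all in GFP-negative replicate 1 (0.233 CPM). It was not called (adjusted p = 0.0901).

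Cyp4 enzymes hydroxylate the ends of fatty acids and leukotrienes. Of 13 tested, 6 were lower in colon (3.79% of all genes were) and none higher (5% of all genes). Among the 6, Cyp4a32 reached 10 counts only in small intestine and so had to differ. Cyp4v3 (ENSMUSG00000079057.5, chromosome 8, 45304944 to 45333216, minus strand), a fatty acid omega-hydroxylase, had 249.6, 46.7 and 153 CPM in small intestine and 4.25 to 10.7 CPM (median 6.95) in colon. The regions did not overlap and the log2 fold change was -4.35 ± 0.45 (adjusted p = 0.00108; -3.76 without small intestinal replicate 1). Cyp4a10, a classical target of PPAR alpha, had 32.01, 0.508 and 9.22 CPM in small intestine and 0 to 0.168 CPM (median 0.0229) in colon, likewise without overlap (-8.55 ± 1.24, adjusted p = 0.00424; -7.03 without small intestinal replicate 1). Its neighbour Cyp4a32 had 1.96, 4.16 and 2.83 CPM in small intestine and 2 counts in colon, both in GFP-high replicate 2. The count ratio was 882 (95% counting interval 243 to 7292) (adjusted p = 0.00303; the fitted log2 value moved from -9.85 to -11.20 without that library), and 43.8% of its windows were shared with other genes.

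The remaining 3 Cyp4 calls belonged to the Cyp4f genes on chromosome 17. Cyp4f14, which hydroxylates leukotriene B4, had the highest mean RPKM of the Cyp4 genes in small intestine (161 RPKM, 47.3% of the class). It had 803, 36.6 and 332 CPM there and 9.56 to 61.9 CPM (median 33.00) in colon. Small intestinal replicate 2 lay inside the colon range, and the call (-3.55 ± 0.81, adjusted p = 0.0281) held in 2 of the 9 fits that left out 1 library, those without colon GFP-negative replicate 3 and small intestinal replicate 2 (0.0579 to 0.126 in the others, -2.47 without small intestinal replicate 1). Cyp4f16 had 197, 50.04 and 115 CPM in small intestine and 35.8 to 63.2 CPM (median 41.8) in colon, overlapping, and its call (-1.46 ± 0.37, adjusted p = 0.0424) held without the same 2 libraries only (0.0796 to 0.166 in the others). Cyp4f15 had 3.98, 7.93 and 7.04 CPM in small intestine and 0 to 0.259 CPM (median 0.0465) in colon without overlap, yet its call (-5.97 ± 1.42, adjusted p = 0.0335) held only without colon GFP-negative replicate 2 (-9.02) or replicate 3, with 0.0514 to 0.102 in the others and a value of -6.60 without colon GFP-high replicate 2.

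Cyp4f40, the leading Cyp4 gene of the colon per length (32.9 RPKM), had 46.2 to 117 CPM (median 83.5) in colon and 190.1, 33.1 and 69.95 CPM in small intestine and was not called. Cyp4b1, Cyp4f13, Cyp4f17, Cyp4f18, Cyp4f37 and Cyp4f39 were not called either, with colon means of 0.102 CPM (Cyp4f37) to 79.4 CPM (Cyp4f13) and small intestinal means of 0.207 to 77.03 CPM for the same genes. Cyp4f18, which inactivates leukotriene B4 in neutrophils, reached 67.4 CPM in colon GFP-negative replicate 3 and 0 in the lowest colon library. In that library 10 immune markers summed to 2844 CPM, the highest of the 9 libraries, beside 2.63 to 635 CPM in the other 5 colon libraries and 12.5 to 45.8 CPM in small intestine. All 10 immune markers reached 10 counts there, and their part in the Cyp4f18 value was not tested.

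Glucuronosyltransferases attach glucuronic acid to bilirubin, steroids, bile acids and drugs. Here 1 of 13 tested was called, a share close to the 8.79% of all genes tested. Ugt2a3 (ENSMUSG00000035780.3, chromosome 5, 87324972 to 87337195, minus strand) had 179, 16.98 and 32.7 CPM in small intestinal replicates 1 to 3 and 0 to 0.0838 CPM (median 0.0392) in colon. All colon libraries lay far below all small intestinal ones, and the log2 fold change was -10.94 ± 1.03 (adjusted p = 0.000691; -9.32 without small intestinal replicate 1 and -11.57 without colon GFP-high replicate 3). The other 12 did not pass the test. Ugt2b34 had 74.9 to 199.96 CPM (median 169.98) in colon and 359.7, 84.2 and 153 CPM in small intestine, Ugt2b5 86.8 to 138 CPM (median 110.1) and 149.6, 3.75 and 17.99 CPM, and Ugt1a7c 69.4 to 165 CPM (median 134) and 227, 41.1 and 65.2 CPM. In all 3 genes the regions overlapped.

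Ugt1a1, which conjugates bilirubin, and Ugt1a9 were below the small intestine in all 6 colon libraries (means of 9.44 and 41.2 CPM for Ugt1a1, 0.239 and 3.03 CPM for Ugt1a9) but did not pass the test (adjusted p = 0.0569 and 0.162). The Ugt1a genes share their last exons, and 53.6% of the windows of Ugt1a7c, 58.2% of Ugt1a1 and 79.8% of Ugt1a6b occur in another gene, so their single values are uncertain. Ugt1a6a, Ugt1a6b, Ugt2b1, Ugt2b35, Ugt2b36, Ugt2b37 and Ugt2b38 overlapped between the regions, with means up to 41.9 CPM in colon and 46.8 CPM in small intestine (both Ugt2b35). The class sum was 150.5 ± 27.5 RPKM (SD, n = 6) in colon and 181 ± 172 RPKM (n = 3) in small intestine, with 378, 62.6 and 102 RPKM in the 3 small intestinal libraries.

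Glutathione S-transferases, which couple glutathione to reactive compounds, were the most abundant class per length in both regions. Of 24 tested, 2 were called, 1 in each direction, a share close to the 8.79% of all genes tested. The class sum was 4057 ± 675 RPKM (SD, n = 6) in colon and 3693 ± 3508 RPKM (n = 3) in small intestine. Small intestinal replicates 1 to 3 stood at 7742, 1755 and 1581 RPKM. Replicate 1 lay above the colon range of 3304 to 4899 RPKM, and replicates 2 and 3 lay below it. Gstm2 (ENSMUSG00000040562.13, chromosome 3, 107981702 to 107986453, minus strand) had 365 to 633 CPM (median 518) in colon and 226, 148 and 84.3 CPM in small intestine. The libraries did not overlap and the log2 fold change was 1.73 ± 0.35 (adjusted p = 0.0167), which missed the threshold without small intestinal replicate 2 (0.0702). Gsta2, an alpha-class enzyme, had 7.86, 0.391 and 0.790 CPM in small intestine and 0.0191 to 0.428 CPM (median 0.113) in colon. Its regions overlapped and 49.8% of its windows were shared with other genes. The call (-4.15 ± 1.09, adjusted p = 0.0482) held only without small intestinal replicate 2 (0.0509 to 0.336 without each of the other 8, -1.80 without small intestinal replicate 1 and -4.91 without colon GFP-high replicate 3).

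The leading Gst genes did not pass the test. Gstm1 had 1678 to 2532 CPM (median 2000) in colon and 1539, 377 and 339 CPM in small intestine, all colon libraries above (1.45 ± 0.52, adjusted p = 0.127). Gstp1 had 934 to 1695 CPM (median 1180) and 1985, 787 and 519 CPM, with overlap. Gstm3 had 314 to 536 CPM (median 401) in colon and 4112, 215 and 389 CPM in small intestine, where replicate 1 stood 19.1-fold above replicate 2. Replicate 1 lay above the colon range, replicate 2 below it and replicate 3 inside it (-1.97 ± 0.76, adjusted p = 0.151). By mean RPKM, Gstm1 led in colon (34.5% of the class) and Gstm3 in small intestine (32.5%). The lead of Gstm3 came from small intestinal replicate 1. In replicates 2 and 3 it had 215 and 389 CPM, beside 787 and 519 CPM for Gstp1. The other 19 members were Gsta1, Gsta3, Gsta4, Gsta5, Gsta13, Gstk1, Gstm4, Gstm5, Gstm6, Gstm7, Gsto1, Gsto2, Gstp2, Gstp3, Gstt1, Gstt2, Gstt3, Gstt4 and Gstz1. Their colon means ran from 0.157 CPM (Gstt4) to 976 CPM (Gsto1) and their small intestinal means from 0.113 to 876 CPM for the same genes. Gsta3, Gstm5, Gsto2 and Gstt3 were higher in all 6 colon libraries without being called. Gsta1 and Gsta13 share 90.5% and 92.5% of their windows with other genes and are uncertain as single genes.

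**Figure D2:**
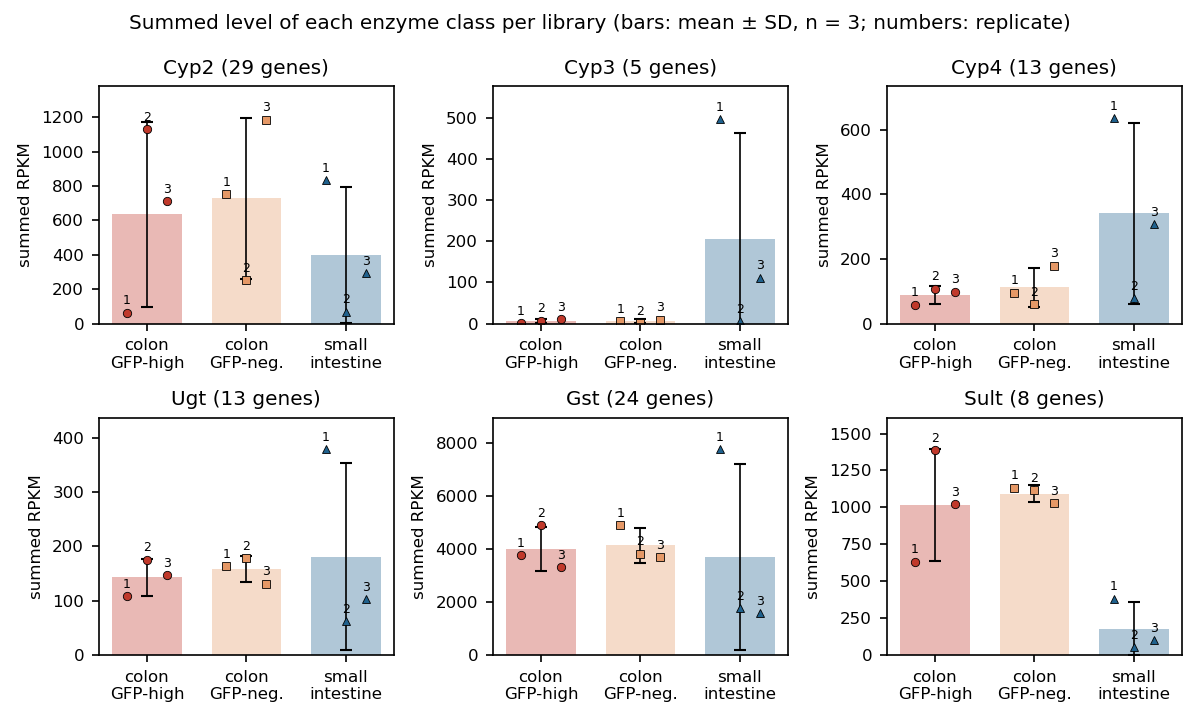
Summed RPKM of 6 enzyme classes per library (symbols, numbered by replicate), with bars for the group mean and whiskers for the SD (n = 3). Only the Sult sums separate the regions, with all small intestinal libraries below 633 RPKM, and small intestinal replicate 1 is the highest of its group in every class.

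The 3 small intestinal libraries differed widely for many of these genes. Over all 93 members 76 were highest in small intestinal replicate 1. The share of all genes highest there was not counted, so this is not shown to be a trait of the enzymes. Of the 16 members lower in colon, 12 were highest in replicate 1 and 11 were lowest in replicate 2. The 12 enterocyte markers took the same order (40835 CPM in replicate 1, 9959 CPM in replicate 3 and 846 CPM in replicate 2), and 11 of the 12 were called lower in colon. None of them was at 0 over all libraries, and 11 or 12 reached 10 counts in each colon library. Of the 16, 10 took the marker order and the other 6 did not. Cyp2e1, Cyp4a32 and Cyp4f15 were not highest in replicate 1, Cyp2c70 and Cyp3a59 were highest there but lowest in replicate 3, and Cyp2c29 was at 1.92 CPM there and 2.12 CPM in replicate 3. Without replicate 1, 20 members were called (11 of them lower), of which 16 were among the 24. The share of all genes called in that fit is not given, so this count does not set the members against other genes. The 8 Paneth cell markers, of which 6 were lower in colon, summed to 24104, 26204 and 16236 CPM in small intestine and 80.9 to 5177 CPM in colon. The part of either cell type in the enzyme differences was not tested. Of 8 hepatocyte markers, Cps1, which small intestinal cells also express, made most of the sum, and Alb stood at 0 to 0.137 CPM in small intestine. Of the 5 tested, 2 were called higher and 1 lower in colon (median log2 fold change 1.68). The sum was 69.5 to 227 CPM in colon and 1203, 1849 and 1596 CPM in small intestinal replicates 1 to 3.

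**Figure D3:**
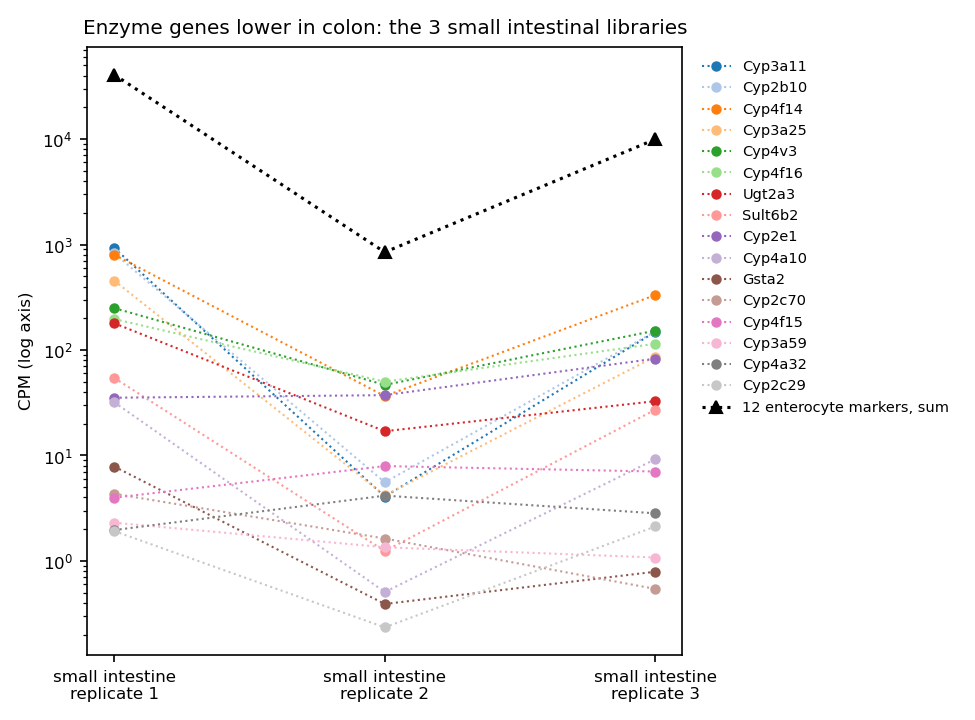
CPM (log axis) of the 16 enzyme genes lower in colon in the 3 small intestinal libraries, beside the sum of 12 enterocyte markers (black triangles); dotted lines only join values of 1 gene. Most genes and the markers are lowest in replicate 2 and highest in replicate 1, whereas Cyp2e1, Cyp4a32 and Cyp4f15 are not.

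Within the colon, the 8 members higher in colon also varied. Of these, 6 were lowest in GFP-high replicate 1, the colon library with the lowest colonocyte sum, and 4 were highest in GFP-negative replicate 3, the colon library with the highest. Of the 8 colonocyte markers themselves, 1 was called higher in colon, and 4 had positive and 4 negative log2 fold changes. Their sum in small intestinal replicate 1 was 3418 CPM, above colon GFP-high replicate 1 (483 CPM) and GFP-negative replicate 2 (3253 CPM). The 9 goblet cell markers, of which 5 were called higher in colon, summed to 7596 to 47141 CPM in colon and 1948 to 19428 CPM in small intestine. The part of these cells in the colon calls was not tested. Sult1a1 and Sult1c2 spanned at most 2.13-fold and 1.74-fold over the colon libraries, beside 34.4-fold for Cyp2d34 and 38.2-fold for Cyp2f2.

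Set against the small intestine separately, each colon fraction gave 16 called members: 6 higher and 10 lower for GFP-high (5.69% of all genes tested were called, 3.94% higher and 1.75% lower) and 7 higher and 9 lower for GFP-negative (5.66% called, 3.95% higher and 1.71% lower). These comparisons share the small intestinal libraries. The 13 members called in both fractions and in the mean of both were Sult1a1, Sult1c2, Gstm2, Cyp2d10 and Cyp2d34 (higher) and Cyp2e1, Cyp2b10, Cyp3a25, Cyp4a10, Cyp4a32, Cyp4v3, Sult6b2 and Ugt2a3 (lower). Of those lower, Cyp2e1, Cyp4a32, Sult6b2 and Ugt2a3 became members only through their small intestinal counts. They had to be lower in both fractions, so their repeated calls add no support. Sult1a1 averaged 1238 ± 439 CPM (SD, n = 3) over the GFP-high and 1295 ± 166 CPM over the GFP-negative libraries, with log2 fold changes over small intestine of 8.16 ± 0.46 and 8.22 ± 0.46 (SE). Cyp2e1 had 0.0200 ± 0.0192 and 0.0158 ± 0.0139 CPM, with -11.26 ± 1.02 and -11.63 ± 1.05. Leaving out colon GFP-high replicates 2 or 3 or small intestinal replicate 3 lowered the count for GFP-high to 7, 6 and 8. That for GFP-negative fell to 7 and 10 without GFP-negative replicate 1 or small intestinal replicate 3. The share of all genes called in these fits is not given, so a fall over the whole table cannot be told from one in the members.

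Between the colon fractions, as labelled, no member was called by edgeR (0% of all genes tested were), with 1 member, Cyp3a59, at an unadjusted p under 0.05. DESeq2 and limma-voom called none either, with 3 and 1 members at that unadjusted level, and none was called without both colon replicate 2 libraries, whose Lgr5 values go against their labels (7 at that unadjusted level). Cyp3a59 had 0 counts in the GFP-high libraries and 10 in the GFP-negative ones (unadjusted p = 0.0167). Cyp2b10 had 0.0750 ± 0.0492 CPM over the GFP-high and 0.867 ± 0.895 CPM over the GFP-negative libraries (SD, n = 3 each), which the fit put at -3.55 ± 1.57 (SE) on the log2 scale. The median over the members was -0.04, beside -0.02 over all genes. With a spread this wide a missed threshold does not show that the fractions were alike.

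**Figure D4:**
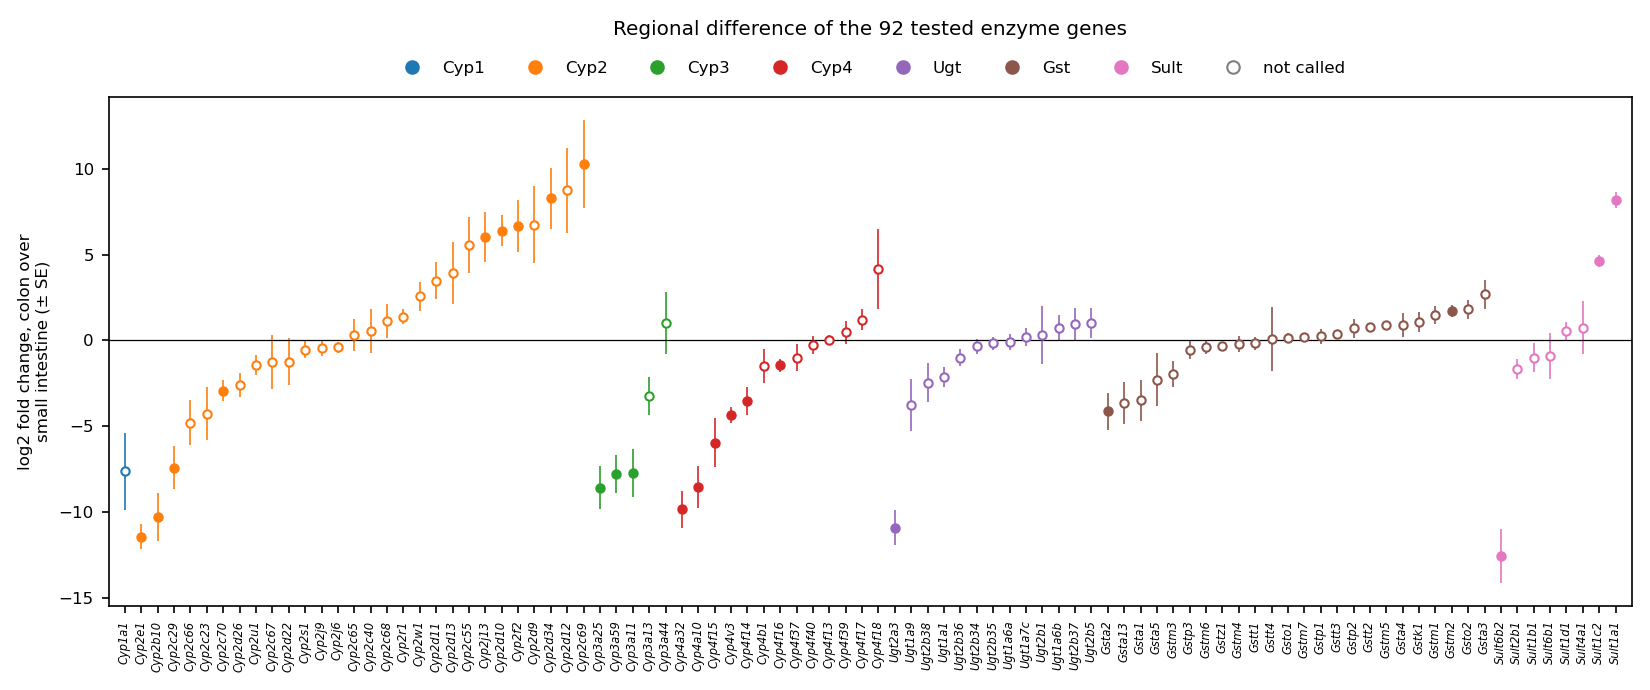
Log2 fold change of colon over small intestine (± SE) for the 92 tested members, by class and ordered within it, with filled symbols for those called; values of genes with few counts in a region (Cyp2c69, Cyp4a32, Sult6b2) depend on the fit's prior count. Cyp2 and Sult genes reach from far below to far above 0, Cyp3 and Cyp4 calls are all below it, and Ugt and Gst genes mostly lie near it.

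Many of these genes stand in tandem clusters, and differences between neighbours were not tested. Positions are those of GENCODE M21 on GRCm38, which holds 92 of the 93 IDs. In the Cyp2d cluster (chromosome 15, 82370527 to 82794294), Cyp2d10 and Cyp2d34 were called higher in colon and their neighbours Cyp2d9, Cyp2d11 and Cyp2d12 had positive log2 fold changes of 3.47 to 8.76 that were not called. The genes at its ends, Cyp2d22 and Cyp2d26, had negative values that were not called either (-1.24 ± 1.40 and -2.61 ± 0.73). In the Cyp2c cluster (chromosome 19, 39007019 to 40187333, 14 genes of which 9 were members), Cyp2c69 was higher in colon and Cyp2c29 and Cyp2c70 lower. The Cyp3a cluster (chromosome 5, 145345279 to 146113287) held 3 adjacent genes lower in colon, Cyp3a11, Cyp3a25 and Cyp3a59, and 4 genes at its other end that did not reach 10 counts in 3 libraries. In the Ugt2 and Sult1 cluster (chromosome 5, 86889767 to 87591594), 1 of 10 members was called, Ugt2a3, between Ugt2b37 and Ugt2b38. The Cyp4f genes on chromosome 17 (32452723 to 32947402) had 3 of 8 lower, the Gstm genes on chromosome 3 had 1 of 7 higher (Gstm2) and the Ugt1a genes on chromosome 1 had none of 5 called. Reads of near-identical neighbours could be split between them: 35.8% of the windows of Cyp2d10 and 7.55% of those of Cyp2d34 occur in another gene. The same holds for 29.8% of the windows of Cyp4a10, 26.8% of Cyp3a25 and 17.4% of Cyp4f16. Cyp3a25 shared 25.2% with Cyp3a59 and Cyp4a10 shared 24.45% with Cyp4a32, so calls of such neighbours may not be independent.

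**Figure D5:**
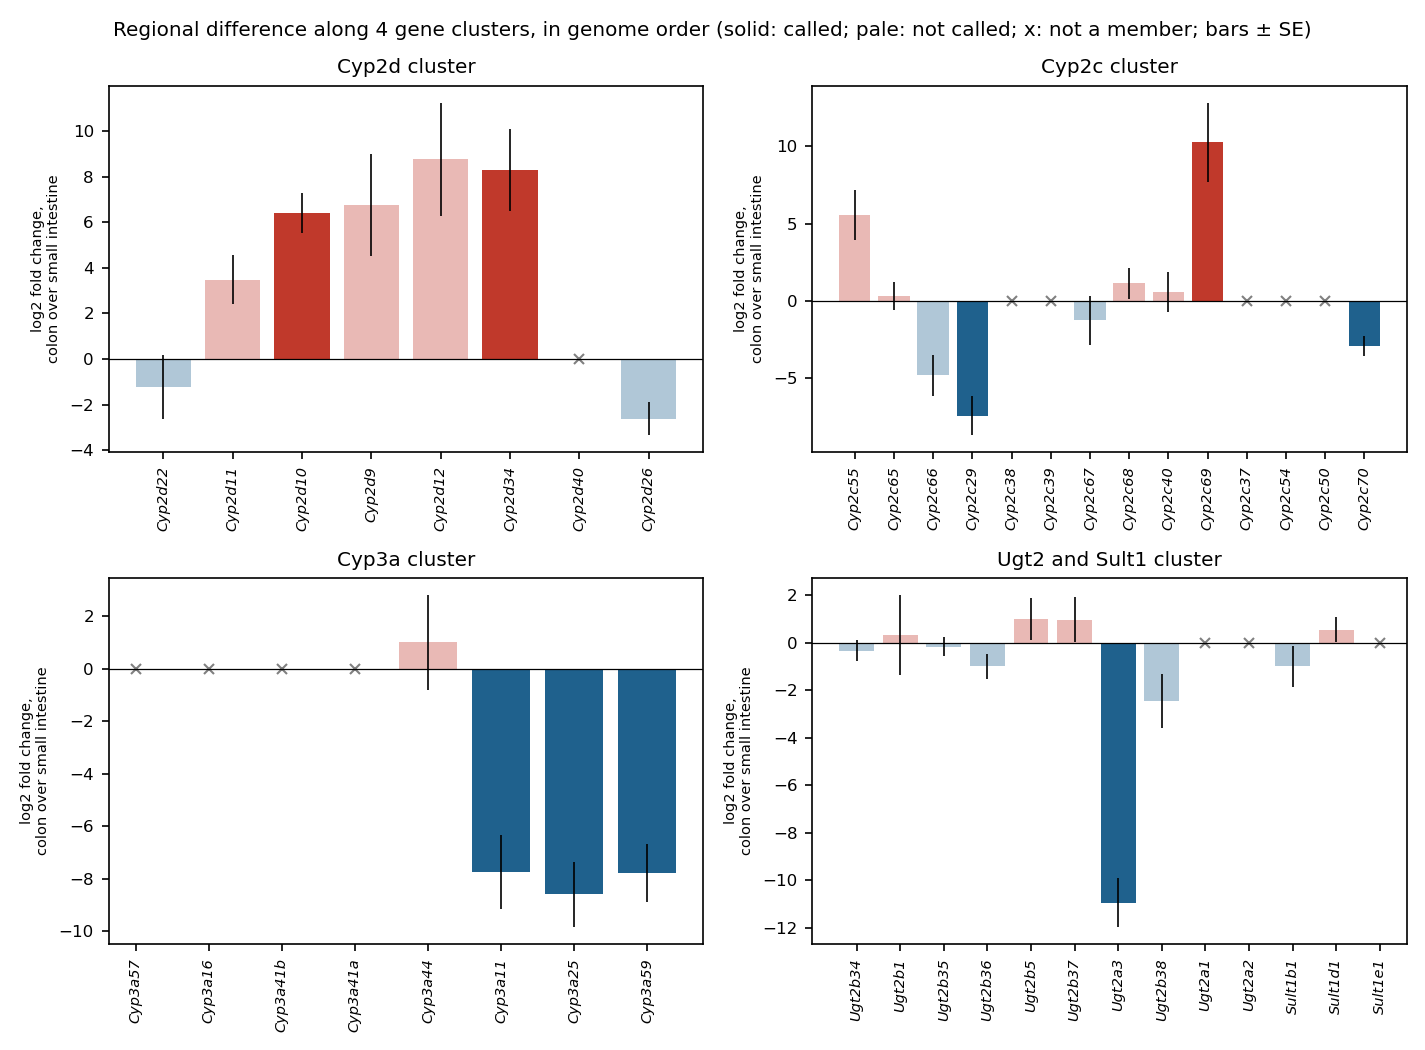
Log2 fold change of colon over small intestine (bars, ± SE) for the genes of 4 clusters in genome order (red above 0, blue below, solid where called, crosses for genes with too few counts to be members). The Cyp2c cluster holds calls in both directions, the Cyp3a calls are 3 adjacent genes and the Ugt2 call is 1 gene among uncalled neighbours.

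Genes around the enzymes were taken from lists of regulators, partners, other enzymes, cofactor supply and transporters. Of 108 tested, 24 were called (8.79% of all genes were), 10 higher (5% of all genes) and 14 lower in colon (3.79% of all genes). Of 14 regulators, 3 were lower and none higher. Nr3c1, the glucocorticoid receptor, had 21.3 to 29.04 CPM in colon and 73.1, 55.5 and 56.1 CPM in small intestine without overlap (-1.36 ± 0.18, adjusted p = 0.00298). Hnf4a, a transcription factor of gut and liver epithelium, had 126 to 196 CPM in colon and 317, 396 and 421 CPM in small intestine, also without overlap (-1.22 ± 0.20, adjusted p = 0.00771). Nr1i3 had 0 to 0.654 CPM in colon and 9.67, 0.605 and 3.11 CPM in small intestine, with 1 colon library above small intestinal replicate 2 (-6.03 ± 1.25, adjusted p = 0.0195). Nr1i2 (-0.43 ± 0.28) and Ahr (-0.09 ± 0.38) were not called, and the most abundant of the list, Nfe2l2, the regulator of the antioxidant response, was not either (-0.31 ± 0.27). The median of the list was -0.57, beside -0.000298 over all genes. None of 6 P450 redox partners was called, including Cyb5a, the most abundant (-1.13 ± 0.45).

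Other phase I enzymes gave 5 higher and 4 lower in colon of 32 tested (list median -0.07). The carbonyl reductase gene Cbr3 had 41.96 to 113 CPM in colon and 4.83, 0.879 and 0.728 CPM in small intestine (5.26 ± 0.81, adjusted p = 0.00526). The aldo-keto reductase gene Akr1b8 (3.40 ± 0.55, adjusted p = 0.00651) and the carboxylesterase gene Ces1g (3.34 ± 0.58, adjusted p = 0.00899) were also higher in all 6 colon libraries. Akr1b7 was lower (-4.86 ± 1.03, adjusted p = 0.0213), with the regions overlapping. Aldh1b1, an aldehyde dehydrogenase gene and the most abundant of the list, was not called (-1.40 ± 0.69). None of 8 other phase II enzymes was called, the most abundant being Mgst3 (0.66 ± 0.62).

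Cofactor supply gave 2 higher and 1 lower of 15 (list median 0.27). Papss1, which makes the sulfate donor PAPS, had 157 to 247 CPM in colon and 96.1, 91.3 and 79.5 CPM in small intestine (1.12 ± 0.22, adjusted p = 0.0138), and Ugp2, which makes UDP-glucose, had 136 to 211 CPM in colon and 111, 88.2 and 75.7 CPM in small intestine (0.95 ± 0.20, adjusted p = 0.0194). Both were higher in every colon library. Ggt1, which cleaves glutathione outside the cell, had 0.115 to 3.80 CPM in colon and 426, 4.34 and 205 CPM in small intestine (-7.66 ± 1.36, adjusted p = 0.00967), and Gsr, the most abundant, was not called (-0.40 ± 0.27). Of 14 transporters, 3 were lower in colon without overlap and none higher (list median -0.40): the organic anion transporter genes Slco3a1 (-4.71 ± 0.39, adjusted p = 0.000346) and Slco2b1 (-3.69 ± 0.43, adjusted p = 0.00155), and Abcc2, which exports conjugates (-6.56 ± 1.18, adjusted p = 0.0105). The most abundant transporter gene, Slc22a18, was not called (0.50 ± 0.53).

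Steroid enzymes outside the named families gave 3 higher and 3 lower of 19 tested (list median -0.34). Hsd11b2, which inactivates glucocorticoids and keeps them from the mineralocorticoid receptor, was the most abundant, with 105 to 584 CPM in colon and 13.3, 12.1 and 9.25 CPM in small intestine. All colon libraries were higher (4.66 ± 0.66, adjusted p = 0.00382). Hsd3b2 had 0.869 to 11.2 CPM in colon and 0.644, 0.264 and 0.0465 CPM in small intestine (4.28 ± 1.08, adjusted p = 0.0413), and reads may be split between it and its relatives. Hsd17b6, which acts on androgens and retinoids, had 0 to 0.110 CPM in colon and 158, 2.18 and 47.8 CPM in small intestine (-11.04 ± 1.41, adjusted p = 0.00245). Cyp17a1, the 17-hydroxylase of steroid synthesis, had 4 counts over the colon libraries and 213 over the small intestinal ones (adjusted p = 0.0107). Cyp11a1, which starts steroid synthesis, was not called (-0.58 ± 1.36), and Cyp11b1 had no count in any library. Without small intestinal replicate 3, 15 of the genes in these lists were called in place of 24. The share of all genes called in that fit is not set beside this count.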

How the data were processed

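Reads were processed with edgeR, Subread, featureCounts and STAR on build mm10, per the submitters' processing notes. Not given in the sources used here: versions, strand setting, annotation release and the treatment of reads that map to several places. Per the file headers, raw read counts per gene were deposited with the authors' log2 CPM, log2 RPKM and log2 TPM, gene lengths, library totals and a scaling factor per library, which is a ratio. CPM and RPKM were computed here from the deposited counts, totals, factors and lengths, and only counts were tested.

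In R 4.3.3, edgeR 4.0.16 filtered genes with filterByExpr by group (20610 tested), scaled by TMM and fitted all 9 libraries in 1 quasi-likelihood model (glmQLFit, glmQLFTest, two-sided). P-values were adjusted by Benjamini-Hochberg over all genes tested, and a gene was called at an adjusted p under 0.05. SE is the log2 fold change divided by the root of the F statistic. The fit was tested on simulated counts. Alternatives used DESeq2 1.42.0, limma 3.58.1 (voom), other scalings and filters, single libraries left out and replicate blocks. Another fitted the 2 regions without fraction labels. Where a colon fraction or a region had at most 3 counts, the ratio of counts with an exact 95% binomial interval replaces the fitted fold; such intervals cover counting error only. Precision was set by the spread between libraries (biological coefficient of variation 0.726) rather than by depth, at which 3 counts make 0.0232 to 0.0411 CPM. Replicates of a group differed by more than counting noise.

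Members were named where they were called between the regions, or were among the 3 of their class with the highest mean RPKM. Genes of the other lists were named where called (at most 4 per list by size of change) or highest in mean CPM; Nr1i2, Ahr, Cyp11a1 and Cyp11b1 were added after their values were seen. Members and lists were chosen with earlier results of these data known.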

Additional observations from a re-analysis of the deposited data

Results flagged for a closer look

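Among the 36 named members, the 6 colon libraries were searched for a single library that stood apart by Dixon's test, which sets the gap to the nearest other library against the whole range. Chance flags about 1 in 20 such groups if values are normally distributed and the groups are independent. The search used CPM without a log scale, pooled both colon fractions, and took the same 6 libraries for every member. That rate may therefore not hold here. The highest library stood apart in 8 members, of which 4 rest on few counts or on 1 library. Among the others, colon GFP-negative replicate 3 stood apart in Cyp4f16 at 63.2 CPM (next 45.3), Cyp2b10 at 1.90 CPM (next 0.419) and Cyp2c70 at 0.558 CPM (next 0.298). This is also the library with the highest colonocyte and immune marker sums. In Cyp3a11, colon GFP-high replicate 3 stood at 7.29 CPM (next 1.65). In the remaining 4 the test says little. Cyp1a1 had 18 counts in colon GFP-negative replicate 1 (0.233 CPM), Sult6b2 had 4 in GFP-negative replicate 3 (0.0429 CPM) and Cyp4a32 had 2 in replicate 2 under the colon GFP-high label (0.0218 CPM), each with 0 in the other 5 colon libraries, so that any count there would have stood apart and the chance rate does not apply. Cyp2c29 had 4 counts in GFP-negative replicate 2 (0.0399 CPM) and 1 in the next library (0.00931 CPM).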

How the results depend on the processing

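The count of 24 members called between the regions became 43 in DESeq2 (all 24 among them) and 14 in limma-voom (12 of the 24), and 15 to 23 when 1 library was left out. No called member changed sign under any of the 20 alternatives, and 14 of the 24 passed in all 9 fits that left out 1 library. For colon GFP-high against small intestine (16) the counts were 37 in DESeq2, 10 in limma-voom, 7 without both colon replicate 2 libraries and 6 to 19 without 1 library; for GFP-negative (16) they were 32, 9 and, without 1 library, 7 to 17. Between the colon fractions all alternatives gave 0. The 24 called genes of the other lists became 15 to 24 without 1 library. The cause of these differences was not tested. Counts under another setting are given without the share of all genes called under it, so they do not set the members against other genes.

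The labels do not say whether libraries with the same replicate number in the title were paired. Deviations of same-numbered libraries from their group means correlated at -0.60 to 0.30, and those of libraries with the same tag at -0.60 to 0.28. These values cannot show whether libraries were paired, because libraries of 1 group also differed in their cell type markers. With the title number as a replicate block, 16 members were called between the regions (15 of the 24), 8 for GFP-high, 9 for GFP-negative and 12 genes of the other lists. With the tag in the library names as the block, whose meaning the labels do not give, 0 were called in each of these (18 genes over the whole table). That block leaves 2 residual degrees of freedom. A tag was shared by colon GFP-high replicate 1, GFP-negative replicate 1 and small intestinal replicate 2. Replicate 2 of both colon fractions shared another, and colon GFP-high replicate 3 shared one with small intestinal replicate 3.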

Other observations

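Of 42 genes with a matching name that are not protein-coding in the table, 3 reached 10 counts in 3 libraries. Gstm2-ps1 had 2.02 to 3.98 CPM in colon and 5.81, 0.566 and 0.372 CPM in small intestinal replicates 1 to 3. Cyp2c52-ps had up to 0.289 CPM in colon and no count in small intestine. Cyp4f41-ps had 0 to 2.41 CPM in colon and 1.59, 1.84 and 1.08 CPM in small intestine.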
